A study of Arabidopsis thaliana with 15 samples.

Results

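The comparison described here is that of rps2 mutant leaves with wild-type Col-0 leaves at 10 h after infiltration with bacteria that carry AvrRpt2. It rests on 6 of the 15 arrays of an Arabidopsis thaliana expression study, 3 labelled rps2 at 10 h and 3 labelled Col-0 at 10 h, which were taken from the labels. One rps2 array was left out of the main test for the reason given below, so that 5 arrays carry it. Plants of both genotypes were 4 weeks old and had grown on soil at 22 °C with 12 h of light. Mature leaves received Pseudomonas syringae pv. maculicola (Psm) with AvrRpt2 at an optical density of 0.01. Sampling took place at 0 and 10 h in rps2 and at 0, 6 and 10 h in Col-0, and each group held 3 biological replicates. The 0 h leaves carried the same infiltration as the others, no mock-infiltrated group is named, and the labels do not give the rps2 allele or the number of plants behind a replicate. The question the comparison answers is which transcripts differ when the leaf meets AvrRpt2 without its matching resistance protein.

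RPS2 is an intracellular nucleotide-binding, leucine-rich repeat receptor. The effector AvrRpt2 is a protease that cleaves the plant protein RIN4, and RPS2 responds to the loss of RIN4 with effector-triggered immunity, which includes calcium influx, salicylic acid, transcriptional reprogramming and often localised cell death. Leaves without RPS2 still detect general bacterial molecules through receptors at the cell surface, which is called pattern-triggered immunity. Transcripts of RPS2 itself, RIN4 and PR1 are not analysed here, so the genotype of the arrays was not checked on the mutated gene.

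Every value is a log2 value relative to the median of that probe set over the 15 arrays, as deposited, so a value of 0 means the middle array and not absence. The values carry no absolute level, and the labelled tissue could therefore not be checked against the level of leaf markers. Replicates 1 and 2 of rps2 at 10 h resembled each other, with an SD of their difference over all probe sets of 0.207, and the Col-0 10 h arrays had 0.237 to 0.25 among themselves. The array labelled rps2 10 h replicate 3 stood at 0.942 to 0.949 from its group mates and at 0.17 to 0.2 from the rps2 0 h arrays. It goes against its label, it was left out of the main test, and for the genes and lists described below (neighbouring genes apart) values with all 15 arrays are given where they change a call or move the difference or median by more than 1.5 times. The 24 probe sets of the poly-A transcripts spiked into the RNA before labelling averaged -0.25 on the 2 remaining rps2 10 h arrays and 0.98 ± 0.13 (SD, n = 3) in Col-0 at 10 h, while all 12 arrays outside that group lay between -0.49 and 0.12. The controls added at hybridisation averaged -0.14 in rps2 and 0.12 in Col-0. Arrays centred on the poly-A controls (the poly-A scale) move the median difference of all probe sets by 1.23, to 1.17 against -0.06 as deposited, so a difference here is one relative to the bulk of the leaf's transcripts. Quantile normalisation repeated on the deposited values, an alternative used below, forces 1 distribution on every array. The SD over probe sets was 0.43 and 0.38 on the 2 rps2 arrays and 1.07 to 1.13 in Col-0 at 10 h. That setting therefore changes differences by itself. In whole leaves, fewer cells of a type and less RNA per cell cannot be told apart. Of the marker lists for other leaf and root cells, 4 of 21 guard cell and stomatal lineage genes were measured (2 higher in rps2, 2 not called, median 0.14), 1 of 21 for phloem and vasculature (higher, 1.12), 1 of 16 for epidermis and trichomes (0.05, or 0.55 with all 15 arrays, not called) and 1 of 16 for root (-0.04, or 0.03 with all 15 arrays, not called). The 2 higher members of the guard cell list were STOMAGEN (4.13), which is made by the mesophyll, and FMA (0.44). MUTE (-0.19) and SPCH (-0.16) were not called. Over all probe sets 27.8% were higher. The part of these cell types in the results was not tested.

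The genotypes differed widely at 10 h. By limma's moderated test with Benjamini-Hochberg adjustment, 13065 of 22746 probe sets differed (57.4%), 6326 of them higher in rps2 (27.8%) and 6739 lower in rps2 (29.6%). A difference of at least 1 on the log2 scale was found for 3064 higher (13.5%) and 2329 lower (10.2%), and one of at least 4 for 80 higher (0.352%) and 135 lower (0.594%). Each difference below given with an SE and no p passed the adjusted threshold of 0.05. The fitted differences ran from -7.15 to 6.69, with the quartiles of all probe sets at -0.34 and 0.37. With all 15 arrays the test called 12514 (55.0%), 6109 higher (26.9%) and 6405 lower (28.2%), of which 11719 were called in the same direction in both fits and 0 in opposite directions. The arrays of the genotypes did not overlap for 7200 probe sets higher in rps2 (31.7%) and 8603 lower (37.8%). On the poly-A scale 19937 probe sets were higher in rps2 (87.7%) and 1228 lower (5.4%). The poly-A scale adds 1.23 to every difference by construction. All 6326 probe sets higher on the deposited scale stayed higher there, and 3931 of the 6739 lower ones turned to higher. Both counts follow from this shift and show nothing further about the transcripts.

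Genes were ranked among probe sets paired with a single gene, past the threshold and without overlap between the groups. The lowest difference of all probe sets (-7.15) is not in this ranking. The ranked genes furthest below Col-0 in rps2 included 3 that encode β-glucosidases. BGLU45 (AT1G61810) encodes a β-glucosidase that releases lignin precursors from their glucosides. It stood at 0.00 and 0.20 in rps2, and at 6.65, 7.05 and 6.69 in Col-0. The difference was -6.70 ± 0.13 on the log2 scale (SE, adjusted p = 2.15e-14), and the groups were far apart. The adjacent gene BGLU46 (AT1G61820), of the same function, stood at -0.05 and -0.12 in rps2, and at 5.38, 5.75 and 6.00 in Col-0 (-5.79 ± 0.21). Another β-glucosidase gene, BGLU27 (AT3G60120), had 0.03 and 0.00 in rps2, and 6.35, 6.71 and 6.20 in Col-0 (-6.40 ± 0.24). Its neighbours AT3G60110 and BGLU16 were lower by -2.27 and -0.56.

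The other genes among the 15 with the largest falls in this ranking were AT1G30700, AT1G26390, AT3G53600, AT2G22760, AT2G35730, the class III peroxidase gene Prx37 (AT4G08770), AT2G32190, the glycosyltransferase genes UGT73B4 (AT2G15490) and UGT73B5 (AT2G15480), AT3G48450, AT3G61390 and AT3G49130. AT1G30700 was at 0.20 and 0.00 in rps2, and at 6.51, 6.90 and 6.92 in Col-0 (-6.68 ± 0.13). Over all 15 genes the rps2 values lay between -0.29 and 0.36 and the Col-0 values between 4.61 and 7.05. The differences ran from -6.70 to -5.20, and from -5.47 to -3.97 on the poly-A scale, so all of them stayed lower. Relative to 0 h, these genes changed by -0.03 to 1.84 in rps2 and by 5.17 to 7.83 in Col-0, 2 changes that share their 10 h arrays with the comparison. At 0 h the genotypes differed by -0.21 to 0.46, and 1 of the 15 was called there (AT2G32190, 0.46, adjusted p = 0.0386).

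Some of these genes lie side by side on the chromosome. UGT73B4 and UGT73B5 are neighbours and differed by -5.51 ± 0.10 and -5.25 ± 0.12. AT1G26390 lies between AT1G26380 and AT1G26400, which were lower by -4.45 and -4.10. Prx37 differed by -5.54 ± 0.13 and its neighbour AT4G08780 by -4.83. AT1G30700 and AT2G22760 show the other case, since both of their measured neighbours were not called, with 0.16 and -0.07 beside AT1G30700.

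**Figure D1:**
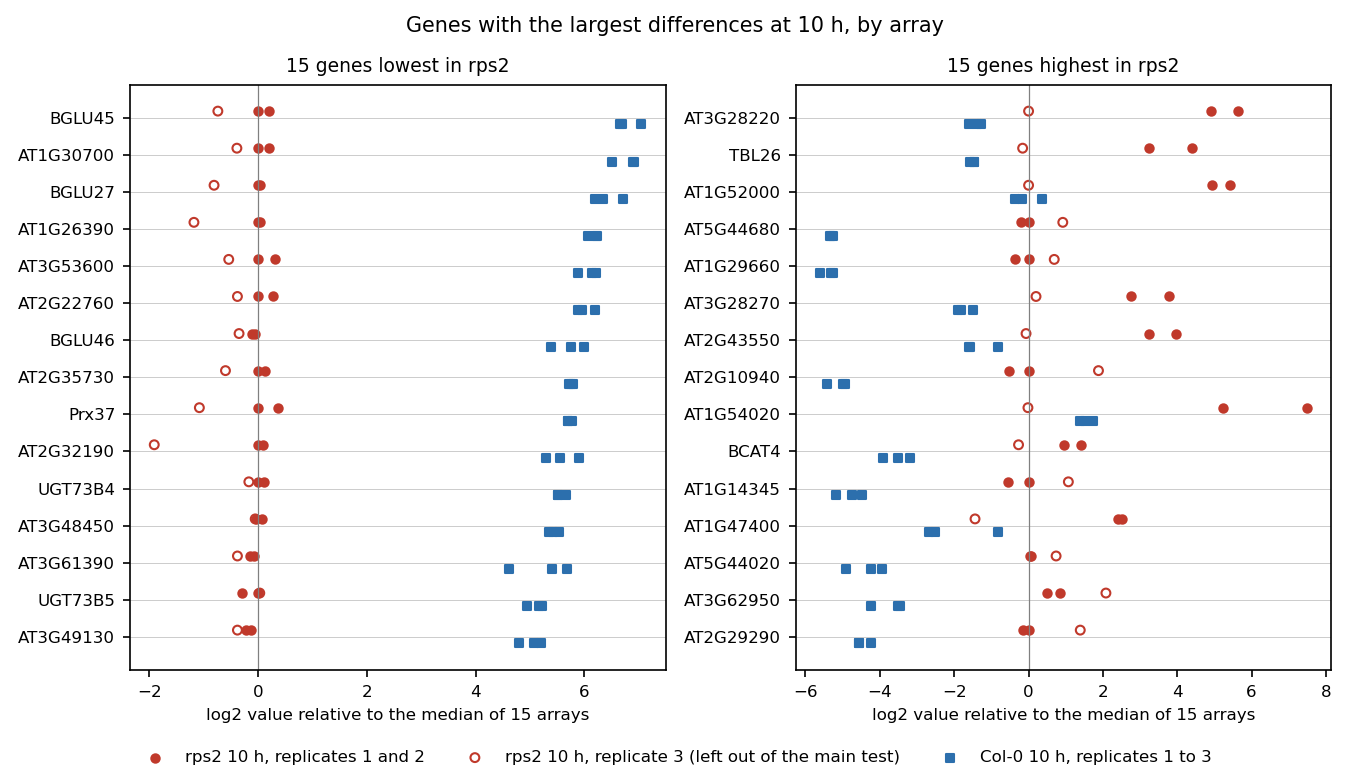
Values of the 15 genes lowest in rps2 (left) and the 15 highest in rps2 (right) at 10 h among the ranked single-gene probe sets, each array as a point on the deposited log2 scale relative to the median of 15 arrays. Filled circles are rps2 replicates 1 and 2, open circles the rps2 array left out, and squares Col-0. On the left the rps2 points lie between -0.29 and 0.36 and the Col-0 points between 4.61 and 7.05, and on the right 7 genes have both rps2 points at 2.41 or more while the other 8 have all Col-0 points at -3.19 or less.

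The measured genes of pattern-triggered immunity were lower in rps2. Of 38 genes looked for under pattern-triggered immunity 5 were measured, and all 5 passed the test in the downward direction, with a median of -1.75 on the deposited scale, -2.58 with all 15 arrays and -0.52 on the poly-A scale. The same share over all probe sets was 29.6% with a median of -0.06. BIK1 (AT2G39660), the cytoplasmic kinase that pattern receptors activate, stood at 0.00 and 0.43 in rps2, and at 2.66, 2.5 and 2.38 in Col-0 (-2.3 ± 0.13). PUB22 (AT3G52450), PUB23 (AT2G35930) and PUB24 (AT3G11840) encode U-box ubiquitin ligases that dampen this form of immunity. They differed by -2.32 ± 0.25, -1.22 ± 0.11 and -1.75 ± 0.12. With all 15 arrays PUB23 and PUB24 both had -2.65. EFR (AT5G20480), the receptor for bacterial elongation factor Tu, had -0.04 and 0.02 in rps2, and 1.2, 1.0 and 0.90 in Col-0 (-1.04 ± 0.17), and it and PUB23 turned to 0.19 and 0.02 on the poly-A scale.

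These genes were higher at 10 h than at 0 h in both genotypes. Relative to 0 h, PUB23 was higher by 4.2 in rps2 and 5.73 in Col-0, and BIK1 by 1.06 in rps2 and 4.03 in Col-0. The change in the genotype difference between 0 and 10 h was called for all 5 members. At 0 h BIK1 was higher in rps2 by 0.67 ± 0.11 (adjusted p = 0.000285) and PUB23 by 0.32 ± 0.10 (adjusted p = 0.0198), the opposite of their direction at 10 h.

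Of 9 measured U-box ligase genes 2 were higher (22.2%, against 27.8% of all probe sets), 6 lower (66.7%, against 29.6%) and 1 not called. Their median of -1.22 became -2.40 with all 15 arrays, -0.67 when quantile normalisation was repeated and 0.01 on the poly-A scale. The lowest was PUB19 (AT1G60190), known from drought responses, with -0.83 and -0.67 in rps2 and 1.32, 1.68 and 1.91 in Col-0 (-2.38 ± 0.24). PUB43 (AT1G76390) differed by -1.84 ± 0.11. Of 7 measured WRKY transcription factor genes 1 was higher (14.3%, against 27.8%), 3 lower (42.9%, against 29.6%) and 3 not called. Their median of -0.31 became -0.78 with all 15 arrays, and turned to 0.92 on the poly-A scale and to 0.03 when quantile normalisation was repeated. WRKY22 (AT4G01250), which acts downstream of flagellin perception, had -1.24 and -0.79 in rps2, and 1.87, 2.03 and 2.04 in Col-0 (-2.99 ± 0.13). WRKY6 (AT1G62300), linked to defence and senescence, had 0.00 and 0.41 in rps2, and 3.0, 2.91 and 2.72 in Col-0 (-2.67 ± 0.18). WRKY20 (AT4G26640) went the other way, by 0.80 ± 0.09.

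The largest differences among the calcium signalling genes were downward. Of 10 measured members 4 were higher (40%, against 27.8% of all probe sets), 5 lower (50%, against 29.6%) and 1 not called, with a median of -0.62 that became -1.10 with all 15 arrays and 0.61 on the poly-A scale. The calmodulin-like gene CML37 (AT5G42380) stood at 0.00 and 0.00 in rps2, and at 4.62, 4.89 and 5.19 in Col-0 (-4.90 ± 0.14). CML38 (AT1G76650) differed by -3.99 ± 0.23 and CML23 (AT1G66400) by -3.76 ± 0.23. The products of such genes bind calcium. These 3, named for their large differences, had no overlap between genotypes, as had 37.8% of all probe sets in that direction. The glutamate receptor-like channel gene GLR2.9 (AT2G29100) had 0.00 and 0.23 in rps2, and 1.53, 2.03 and 2.28 in Col-0 (-1.83 ± 0.17). CML41 (AT3G50770) was higher in rps2, with 2.01 and 2.07 in rps2 and 1.05, 0.68 and 0.90 in Col-0 (1.17 ± 0.13, adjusted p = 1.34e-06). Over all 15 arrays CML41 had -0.78 and was not called (adjusted p = 0.582). Of the 8 genes of the calmodulin-like family 2 were higher (25%, against 27.8%), 5 lower (62.5%, against 29.6%) and 1 not called. Their median was -1.66, or -2.41 with all 15 arrays, -0.43 on the poly-A scale and -0.41 when quantile normalisation was repeated.

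Of the resistance protein list, 2 of 31 members were measured. SAG101 (AT5G14930), a lipase-like partner of EDS1 in the signalling of resistance proteins, had 0.00 and 0.03 in rps2, and 0.86, 0.77 and 0.69 in Col-0 (-0.76 ± 0.12), and it turned to 0.47 on the poly-A scale. SGT1A (AT4G23570), a co-chaperone of resistance proteins, had 0.82 and 0.94 in rps2, and 0.13, -0.08 and 0.13 in Col-0 (0.82 ± 0.12). SGT1A had 0.49 over all 15 arrays and was not called (adjusted p = 0.0777). The same genotype difference in SGT1A was present at 0 h (0.59 ± 0.11, adjusted p = 0.000592), and its change between times was 0.23 ± 0.16 (adjusted p = 0.26).

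Of 46 salicylic acid genes looked for 4 were measured. None of the 4 was higher in rps2 (against 27.8% of all probe sets), 3 were lower (75%, against 29.6%) and 1 was not called. Their median of -0.68 became -2.52 with all 15 arrays and 0.55 on the poly-A scale. GRX480 (AT1G28480), a glutaredoxin that binds TGA transcription factors of the salicylic acid response, stood at 0.17 and 0.00 in rps2, and at 1.2, 1.45 and 1.46 in Col-0 (-1.28 ± 0.14). Its difference over all 15 arrays was -3.11 (adjusted p = 0.0235). UGT76B1 (AT3G11340), a glucosyltransferase gene for salicylic acid and N-hydroxypipecolic acid, had 0.03 and 0.00 in rps2, and 1.17, 1.16 and 0.98 in Col-0 (-1.09 ± 0.21, adjusted p = 0.000314). With all 15 arrays it had -3.62 and missed the threshold (adjusted p = 0.0507), and on the poly-A scale it turned to 0.14. Relative to 0 h both genes were far higher at 10 h in both genotypes, GRX480 by 5.47 in rps2 and 6.51 in Col-0, and UGT76B1 by 7.68 in rps2 and 8.30 in Col-0.

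The methyltransferase gene BSMT1 (AT3G11480), whose product makes methyl salicylate, had the smallest difference of the list. It stood at 6.39 and 5.11 in rps2, and at 5.65, 5.90 and 5.53 in Col-0. The difference was 0.06 with a 95% interval of -0.47 to 0.59 (adjusted p = 0.864). Its sign rested on single arrays, since it was -0.58 (adjusted p = 0.0063) without rps2 replicate 1 and 0.70 (adjusted p = 0.00169) without rps2 replicate 2. It was -1.92 with all 15 arrays (adjusted p = 0.179) and 1.01 with repeated quantile normalisation (adjusted p = 5.17e-05). The glucosyltransferase gene UGT74F1 (AT2G43840) differed by -0.27 ± 0.08 (adjusted p = 0.00574), by -0.24 (adjusted p = 0.0501) without rps2 replicate 2 and by -0.07 (adjusted p = 0.496) with repeated quantile normalisation, and turned to 0.96 on the poly-A scale.

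Jasmonic acid genes were divided. Of 8 measured members 3 were higher (37.5%, against 27.8% of all probe sets), 2 lower (25%, against 29.6%) and 3 not called. Their median of 0.08 became -0.33 with all 15 arrays and 1.31 on the poly-A scale. THI2.1 (AT1G72260), encoding an antimicrobial thionin, had 3.24 and 1.25 in rps2, and 0.10, -0.27 and 0.00 in Col-0 (2.3 ± 0.35, adjusted p = 3.67e-05). The defensin gene PDF1.2 (AT5G44420) had 2.98 and 0.04 in rps2, and -0.56, -0.63 and -0.41 in Col-0 (2.04 ± 0.59, adjusted p = 0.00797). The 2 rps2 arrays were unlike each other in PDF1.2, and the call was lost with all 15 arrays (1.54, adjusted p = 0.0589) and without rps2 replicate 1 (0.57, adjusted p = 0.303). MYC4 (AT4G17880), a transcription factor of the jasmonate response, was higher by 0.99 ± 0.16. DGL (AT1G05800), a lipase gene at the start of jasmonate synthesis, had -0.21 and -0.07 in rps2, and 2.07, 2.63 and 1.81 in Col-0 (-2.31 ± 0.17).

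Phenylpropanoid and lignin genes were mostly lower in rps2. Of 10 measured members 1 was higher (10%, against 27.8% of all probe sets), 8 lower (80%, against 29.6%) and 1 not called. Their median was -1.97, or -3.26 with all 15 arrays and -0.74 on the poly-A scale. Besides BGLU45 and BGLU46, CCOAMT (AT1G67980), which encodes a caffeoyl-CoA methyltransferase, had 0.27 and 0.00 in rps2, and 5.15, 5.23 and 5.25 in Col-0 (-5.07 ± 0.14). The peroxidase gene PRX52 (AT5G05340), whose product takes part in lignin polymerisation, had 0.18 and 0.00 in rps2, and 4.42, 4.70 and 4.71 in Col-0 (-4.52 ± 0.12). CCR2 (AT1G80820), a cinnamoyl-CoA reductase gene known for its response to pathogens, had 0.36 and 0.00 in rps2, and 3.27, 3.07 and 2.78 in Col-0 (-2.86 ± 0.17). These 3 genes were nonetheless higher at 10 h than at 0 h in rps2, by 1.08, 2.71 and 3.11, against 5.96, 7.33 and 6.32 in Col-0. The one member that was higher in rps2, UGT72E1 (AT3G50740), which glucosylates lignin precursors, was named after its values were seen. It had 0.00 and -0.28 in rps2, and -1.94, -1.99 and -2.0 in Col-0 (1.84 ± 0.15).

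The enzyme families that attach and remove sugars contained some of the largest differences, while 29 of 51 UDP-glycosyltransferase genes and 15 of 22 β-glucosidase genes had 95% intervals within 1 of 0 on the log2 scale. Of 51 measured UDP-glycosyltransferase genes 13 were higher (25.5%, against 27.8% of all probe sets), 25 lower (49.0%, against 29.6%) and 13 not called, and the median of -0.30 turned to 0.93 on the poly-A scale. UGT73C7 (AT3G53160) had -0.14 and 0.00 in rps2, and 5.09, 4.88 and 5.33 in Col-0 (-5.16 ± 0.14). UGT71B5 (AT4G15280) differed by -3.51 ± 0.14. The highest in rps2 was UGT88A1 (AT3G16520), named after its values were seen, with 2.91 ± 0.14. Of 22 measured β-glucosidase genes 1 was higher (4.55%, against 27.8%), 12 lower (54.5%, against 29.6%) and 9 not called. Their median of -0.43 turned to 0.80 on the poly-A scale. BGLU31 (AT5G24540) had 0.07 and 0.00 in rps2, and 3.01, 3.27 and 2.9 in Col-0 (-3.03 ± 0.16). The one higher member, BGLU44 (AT3G18080), also named after its values were seen, had 0.00 and -0.41 in rps2, and -2.62, -2.63 and -2.5 in Col-0 (2.38 ± 0.13). In the serine carboxypeptidase-like family the larger differences were upward, with 13 of 29 higher (44.8%, against 27.8% of all probe sets), 3 lower (10.3%, against 29.6%) and 13 not called. The median was 0.06, or 0.01 with all 15 arrays and 1.29 on the poly-A scale. SCPL34 (AT5G23210) had 1.39 and 1.69 in rps2, and -2.77, -2.85 and -2.46 in Col-0 (4.24 ± 0.14).

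All 11 measured redox genes passed the test, as did 57.4% of all probe sets. Of these genes 4 were higher (36.4%, against 27.8%) and 7 lower (63.6%, against 29.6%) in rps2, with a median of -1.42, or -0.19 on the poly-A scale. Members of the glutathione transferase family, which conjugate glutathione to reactive compounds, went both ways. GSTU20 (AT1G78370) had 1.85 and 1.37 in rps2, and -2.86, -2.39 and -2.40 in Col-0 (4.16 ± 0.25), whereas GSTU25 (AT1G17180) had -0.02 and 0.00 in rps2, and 2.79, 3.4 and 4.06 in Col-0 (-3.43 ± 0.24). The zinc-finger repressor gene STZ (AT1G27730) differed by -2.47 ± 0.34, the mitochondrial alternative NAD(P)H dehydrogenase gene NDB2 (AT4G05020) by -2.47 ± 0.15, and the monodehydroascorbate reductase gene ATMDAR2 (AT5G03630) by -2.36 ± 0.18.

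Genes of protein folding and secretion were lower in rps2 by smaller amounts. Of 9 measured genes of the endoplasmic reticulum 6 were lower (66.7%, against 29.6% of all probe sets) and 3 not called. Their median of -0.64 turned to 0.59 on the poly-A scale. At 0 h 4 of the 9 were already lower in rps2 (against 13.9% of all probe sets), with a median of -0.26. The change in the genotype difference between 0 and 10 h was called for 5 of the 9 (against 51.8% of all probe sets). BZIP60 (AT1G42990) and BZIP28 (AT3G10800) encode membrane-bound transcription factors of the unfolded protein response. BZIP60 had 0.00 and 0.35 in rps2, and 1.66, 1.66 and 1.67 in Col-0 (-1.49 ± 0.14), and BZIP28 differed by -1.31 ± 0.08. AT3G63460, annotated as SEC31B of the coat that buds vesicles from the endoplasmic reticulum, differed by -0.75 ± 0.10 and was 0.48 on the poly-A scale. Of 16 measured genes of endosomes, exocytosis and vesicle traffic 13 were lower (81.2%, against 29.6% of all probe sets), 1 higher and 2 not called, and the median of -0.85 turned to 0.38 on the poly-A scale. The tetraspanin gene TET9 (AT4G30430) had -0.11 and 0.39 in rps2, and 2.83, 2.83 and 3.15 in Col-0 (-2.80 ± 0.17). VPS20.1 (AT5G63880), a subunit of the complex that forms vesicles inside endosomes, differed by -1.95 ± 0.11, and KEU (AT1G12360), a regulator of membrane fusion, by -1.35 ± 0.09.

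Autophagy genes were also lower in the larger part. Of 11 measured members 2 were higher (against 27.8% of all probe sets), 7 lower (against 29.6%) and 2 not called. Their median of -0.55 turned to 0.68 on the poly-A scale. The ATG8 proteins are attached to the autophagosome membrane. ATG8H (AT3G06420) had 0.00 and 0.03 in rps2, and 2.37, 2.52 and 2.61 in Col-0 (-2.49 ± 0.10), and ATG8B (AT4G04620) differed by -2.10 ± 0.15. ATG8F (AT4G16520) had -0.04 and 0.01 in rps2, and -1.16, -1.15 and -0.94 in Col-0 (1.07 ± 0.11), so 1 family held both directions. Of 26 genes looked for under cytosolic heat shock proteins 2 were measured, and neither encodes a heat shock protein itself. Both were lower (against 29.6% of all probe sets), with a median of -3.0, or -1.77 on the poly-A scale. Fes1A (AT3G09350), which assists the heat shock protein HSP70, had 0.17 and 0.00 in rps2, and 3.62, 3.82 and 3.92 in Col-0 (-3.70 ± 0.10). AT5G48570, annotated as the co-chaperone ROF2, differed by -2.29 ± 0.17.

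**Figure D2:**
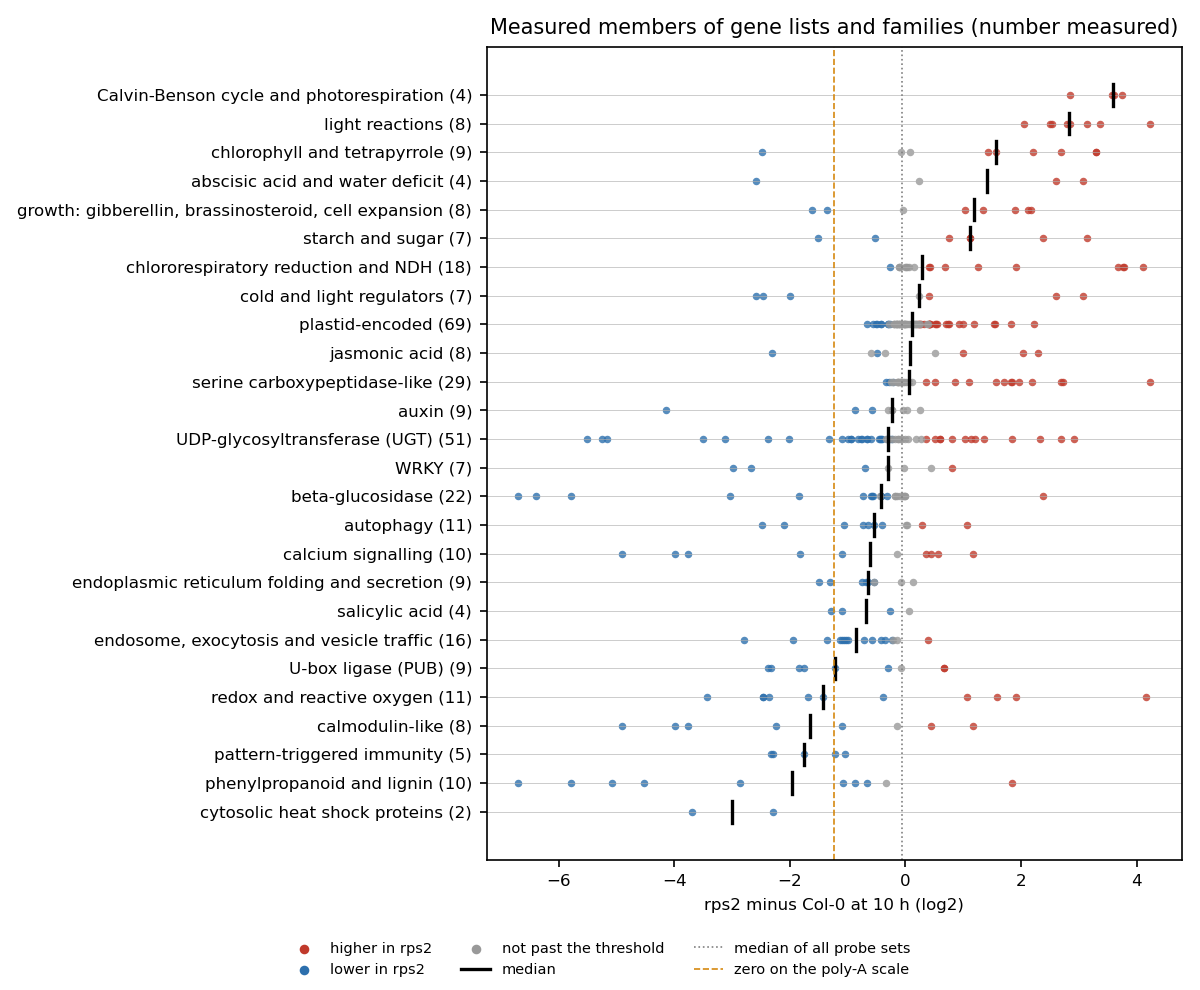
Differences between rps2 and Col-0 at 10 h on the log2 scale for the measured members of 26 gene lists and families, 1 point per gene, coloured by whether the gene was higher, lower or not past the threshold, with a black bar at the median. The dotted line is the median of all probe sets (-0.06) and the dashed line is where 0 lies on the poly-A scale. The lists run between a median of 3.59 for the Calvin-Benson cycle and -3.0 for the list of cytosolic heat shock proteins, and many medians lie between the 2 lines. The latter list holds 2 measured genes, neither of which encodes a heat shock protein itself.

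The measured genes of the light reactions and the Calvin-Benson cycle were all higher in rps2. Of 64 light reaction genes looked for 8 were measured, and all 8 passed the test (against 27.8% of all probe sets). Their median was 2.83, with a range of 2.06 to 4.23, and 4.06 on the poly-A scale. LHCB4.2 (AT3G08940), a chlorophyll-binding antenna protein of photosystem II, stood at -0.54 and 0.00 in rps2, and at -4.81, -4.60 and -4.09 in Col-0 (4.23 ± 0.17). The photosystem I subunit gene PSAN (AT5G64040) had 0.00 and -0.13 in rps2, and -3.61, -3.58 and -3.12 in Col-0 (3.37 ± 0.13). PSBY (AT1G67740) differed by 3.15 ± 0.10 and ATPC1 (AT4G04640), for the γ subunit of the chloroplast ATP synthase, by 2.80 ± 0.08. LHCB4.3 (AT2G40100) differed by 2.85 ± 0.19, and it was the one member called at 0 h (1.26 ± 0.17).

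Of 40 genes of the Calvin-Benson cycle and photorespiration looked for 4 were measured. All 4 were also higher (against 27.8% of all probe sets), with a median of 3.59, or 4.82 on the poly-A scale. PRK (AT1G32060), phosphoribulokinase, had 0.00 and -0.24 in rps2, and -4.09, -3.85 and -3.66 in Col-0 (3.75 ± 0.14). SBPASE (AT3G55800), sedoheptulose-bisphosphatase, differed by 3.61 ± 0.12, the photorespiratory hydroxypyruvate reductase gene HPR (AT1G68010) by 3.58 ± 0.11 and the Rubisco activase gene RCA (AT2G39730) by 2.84 ± 0.08. Over these 4 genes the rps2 values lay between -0.24 and 0.00 and the Col-0 values between -4.09 and -2.78. Both genotypes were lower at 10 h than at 0 h, by medians of -0.65 in rps2 and -4.16 in Col-0.

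Of 9 measured chlorophyll and tetrapyrrole genes 6 were higher (66.7%, against 27.8% of all probe sets), 1 lower (11.1%, against 29.6%) and 2 not called. Their median was 1.57, or 2.80 on the poly-A scale. CHLM (AT4G25080), the magnesium protoporphyrin methyltransferase, had 0.00 and -0.07 in rps2, and -3.33, -3.46 and -3.20 in Col-0 (3.3 ± 0.10). PORB (AT4G27440), which reduces protochlorophyllide in light, had -0.30 and 0.00 in rps2, and -3.05, -3.53 and -3.75 in Col-0 (3.3 ± 0.16). The magnesium chelatase gene CHLI2 (AT5G45930) differed by 2.7 ± 0.09 and NOL (AT5G04900), of chlorophyll b breakdown, by 2.21 ± 0.13. HEMA2 (AT1G09940), an isoform of the first enzyme of the pathway outside the main photosynthetic one, went the other way, with 0.00 and 0.25 in rps2, and 2.48, 2.64 and 2.72 in Col-0 (-2.49 ± 0.12).

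The chloroplast NDH complex is built from subunits encoded in the plastid and in the nucleus. Of 18 measured genes of the complex and its assembly 9 were higher (50%, against 27.8%), 1 lower (5.56%, against 29.6%) and 8 not called. Their median was 0.28, or 0.49 with all 15 arrays and 1.51 on the poly-A scale. The nuclear genes NdhN (AT5G58260), CRR42 (AT5G20935), NdhL (AT1G70760) and NdhS (AT4G23890) differed by 3.68 to 4.12, with rps2 values between -0.31 and 0.00 and Col-0 values between -4.48 and -3.3. The 10 members encoded in the plastid differed by -0.26 to 0.42 and the 8 others by 0.14 to 4.12, a split that was noticed in the values and not tested. Among all 69 measured genes of the plastid genome 24 were higher (34.8%, against 27.8% of all probe sets), 9 lower (13%, against 29.6%) and 36 not called, and the median of 0.12 became 0.31 with all 15 arrays, 1.35 on the poly-A scale and -0.11 when quantile normalisation was repeated. The largest were rpl33, of the plastid ribosome, with 2.23 ± 0.11, psaJ, of photosystem I, with 1.82 ± 0.10, rbcL, the large subunit of Rubisco, with 1.55 ± 0.12, and matK, a splicing factor, with 1.54 ± 0.16. The call of matK was lost when quantile normalisation was repeated (0.76, adjusted p = 0.0714).

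Genes of starch and growth were higher in part. Of 7 measured starch and sugar genes 5 were higher (71.4%, against 27.8% of all probe sets) and 2 lower (28.6%, against 29.6%). Their median was 1.12, or 2.35 on the poly-A scale. DPE1 (AT5G64860), the disproportionating enzyme of starch breakdown, had 0.24 and 0.20 in rps2, and -2.79, -3.0 and -2.97 in Col-0 (3.14 ± 0.11). The starch branching enzyme gene SBE2.2 (AT5G03650) differed by 2.38 ± 0.10. The sugar exporter gene SWEET4 (AT3G28007) had 1.37 and 0.83 in rps2, and 2.48, 2.77 and 2.58 in Col-0 (-1.51 ± 0.22), or -2.67 with all 15 arrays, and 0.13 when quantile normalisation was repeated. STOMAGEN (AT4G12970), a peptide made by the mesophyll that promotes stomata, had 0.00 and -0.25 in rps2, and -4.2, -4.2 and -4.38 in Col-0 (4.13 ± 0.14).

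Of 8 measured growth genes 5 were higher (62.5%, against 27.8% of all probe sets), 2 lower (25%, against 29.6%) and 1 not called. Their median was 1.19, or 2.42 on the poly-A scale. At 0 h 4 of the 8 were higher in rps2 (against 16.3% of all probe sets) and 3 lower (against 13.9%). The 0 h differences ran from -1.24 to 1.58, with a median of 0.15. EXPA8 (AT2G40610), an expansin that loosens cell walls, had 0.00 and -0.17 in rps2, and -2.32, -2.20 and -2.27 in Col-0 (2.18 ± 0.14), or 3.69 with all 15 arrays. XTH16 (AT3G23730), of xyloglucan remodelling, differed by 2.12 ± 0.24. The 2 measured gibberellin receptor genes went opposite ways: GID1A (AT3G05120) had 0.49 and 0.17 in rps2, and -1.32, -2.05 and -1.36 in Col-0 (1.90 ± 0.17), and GID1B (AT3G63010) had 0.00 and 0.12 in rps2, and 1.78, 1.69 and 1.58 in Col-0 (-1.62 ± 0.15).

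By the same ranking, the 15 largest rises in rps2 were AT3G28220, TBL26 (AT4G01080), AT1G52000, AT5G44680, AT1G29660, AT3G28270, AT2G43550, AT2G10940, AT1G54020, BCAT4 (AT3G19710), AT1G14345, AT1G47400, AT5G44020, AT3G62950 and AT2G29290. In 7 of them the rps2 leaves themselves were higher at 10 h than at 0 h by at least 2 on the log2 scale. In 6 of these 7 the Col-0 leaves were also lower at 10 h than at 0 h by at least 2. At 0 h the genotypes differed by -4.27 to 1.81 over the 15 genes. There 11 of the 15 were called, against 30.1% of all probe sets, and 5 of these 11 were among the 7. AT3G28220 stood at 5.63 and 4.91 in rps2, and at -1.27, -1.4 and -1.60 in Col-0 (6.69 ± 0.51). TBL26, of a family that acetylates cell wall polymers, had 4.40 and 3.25 in rps2, and -1.58, -1.47 and -1.47 in Col-0 (5.33 ± 0.35). AT1G52000 had 5.42 and 4.94 in rps2, and 0.36, -0.36 and -0.18 in Col-0 (5.24 ± 0.39). The SE of these 7 ran from 0.25 to 0.66, wider than for the largest falls (0.10 to 0.24).

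AT1G54020 had 7.49 and 5.23 in rps2, and 1.52, 1.72 and 1.37 in Col-0 (4.82 ± 0.39). With all 15 arrays it had 2.69 and was not called (adjusted p = 0.091). The other 8 of the 15 had low Col-0 values, with rps2 values between -0.56 and 1.4 and Col-0 values between -5.61 and -3.19. AT5G44680 had -0.20 and 0.00 in rps2, and -5.32, -5.27 and -5.35 in Col-0 (5.22 ± 0.12). AT1G29660 differed by 5.21 ± 0.17 and its neighbour AT1G29670 by 3.47. BCAT4, an aminotransferase of methionine-derived glucosinolates, had 1.4 and 0.95 in rps2, and -3.91, -3.51 and -3.19 in Col-0 (4.71 ± 0.26).

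**Figure D3:**
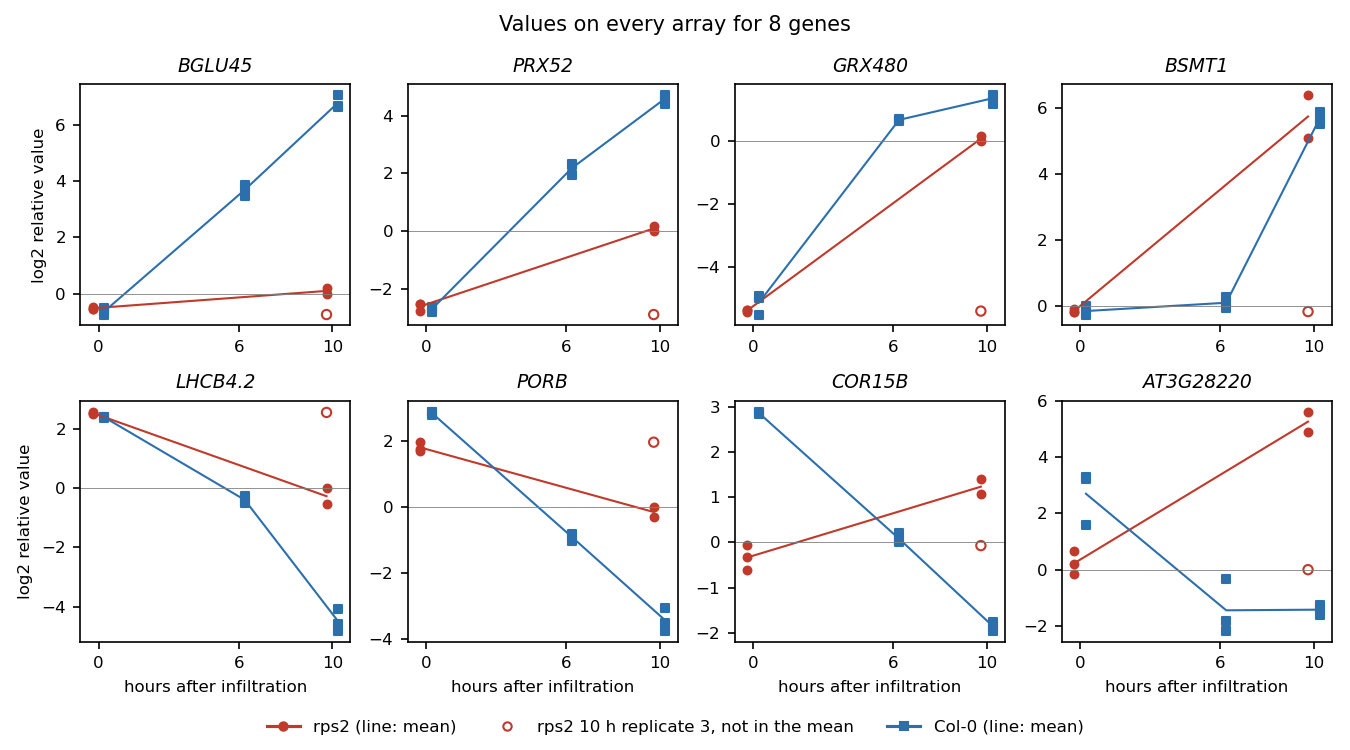
Values of 8 genes on every array by hours after infiltration, on the deposited log2 scale, with rps2 as circles, Col-0 as squares, lines through group means, and the rps2 10 h array left out as an open circle. BGLU45 ends at 0.00 and 0.20 in rps2 and at 6.65 to 7.05 in Col-0, BSMT1 ends at 5.11 and 6.39 in rps2 and at 5.53 to 5.90 in Col-0, and the open circle lies near the rps2 0 h values in all 8 panels.

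The genotypes also differed at 0 h. At this time, 6854 probe sets differed (30.1%), 3703 higher (16.3%) and 3151 lower (13.9%) in rps2, with an SD of the differences over probe sets of 0.51, against 1.12 at 10 h. On the poly-A scale the 0 h comparison had 1313 higher and 2987 lower. The 2 comparisons share no array. Of the 6326 probe sets higher in rps2 at 10 h, 1347 were also higher at 0 h (21.3% of the 10 h list and 36.4% of the 0 h list), 1609 were lower at 0 h (25.4% and 51.1%) and 3370 were not called there. Of the 6739 lower at 10 h, 864 were also lower at 0 h (12.8% and 27.4%), 1311 were higher at 0 h (19.5% and 35.4%) and 4564 were not called. The difference at 10 h less that at 0 h was called for 11773 probe sets (51.8%), for 5754 upward (25.3%) and for 6019 downward (26.5%), and on the poly-A scale for 19509 upward and 1193 downward.

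Genes of cold, light and the clock were among those that differed at both times. Of 7 measured cold and light regulators 3 were higher at 10 h (42.9%, against 27.8% of all probe sets), 3 lower (42.9%, against 29.6%) and 1 not called. Their median of 0.23 became 1.46 on the poly-A scale, -1.25 when quantile normalisation was repeated and -1.62 with all 15 arrays. At 0 h the median was -2.99, with 1 higher (against 16.3% of all probe sets) and 5 lower (against 13.9%). COR15B (AT2G42530), a cold-induced protein that protects chloroplast membranes, had 1.39 and 1.07 in rps2, and -1.84, -1.95 and -1.75 in Col-0 at 10 h (3.07 ± 0.14), against a difference of -3.19 ± 0.12 at 0 h. Its homologue COR15A (AT2G42540) differed by 2.6 ± 0.17 at 10 h and by -2.99 ± 0.15 at 0 h. The dehydrin gene LTI30 (AT3G50970) was lower in rps2 at both times, by -2.59 ± 0.17 at 10 h and -3.19 ± 0.15 at 0 h. The 4 measured genes of abscisic acid and water deficit, a list that shares COR15A, COR15B and LTI30, had a median of 1.41 at 10 h, or 2.65 on the poly-A scale, and -3.09 at 0 h.

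COR27 (AT5G42900), of the cold response and the clock, differed by -6.06 ± 0.14 at 0 h. At 10 h it had 0.55 and 0.31 in rps2, and -0.12, 0.14 and 0.04 in Col-0 (0.41 ± 0.16, adjusted p = 0.0363), and -1.62 with all 15 arrays (adjusted p = 0.262). This call was also lost with array weights, with the replicate block, with trended and robust variance and without any of Col-0 replicate 1, Col-0 replicate 3 or rps2 replicate 1, with differences of 0.29 to 0.42. The clock gene GI (AT1G22770) had -3.09 and -2.88 in rps2, and -1.64, -1.41 and -1.79 in Col-0 (-1.37 ± 0.13), but -0.35 with all 15 arrays (adjusted p = 0.65). HYH (AT3G17609), a light-signalling transcription factor, was lower by -2.0 ± 0.17 at 10 h and higher by 1.48 ± 0.15 at 0 h. The labels give no clock time for either genotype, so the part of sampling time in these values was not tested.

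Of 9 measured auxin genes none was higher at 10 h (against 27.8% of all probe sets), 3 were lower (33.3%, against 29.6%) and 6 not called. Their median of -0.24 became -0.08 with all 15 arrays and turned to 0.99 on the poly-A scale. At 0 h 6 of the 9 genes were higher in rps2, against 16.3% of all probe sets, and the median was 0.49. GH3.3 (AT2G23170), WES1 (AT4G27260) and GH3.17 (AT1G28130) encode enzymes that conjugate auxin to amino acids. GH3.3 had -1.54 and -1.02 in rps2, and 2.73, 3.09 and 2.75 in Col-0 (-4.14 ± 0.40) at 10 h, against a difference of 3.71 ± 0.36 at 0 h. WES1 differed by -0.88 ± 0.24, by -0.34 with all 15 arrays (adjusted p = 0.477) and by 0.35 on the poly-A scale, and GH3.17 by -0.58 ± 0.13 and 0.65 on the poly-A scale.

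**Figure D4:**
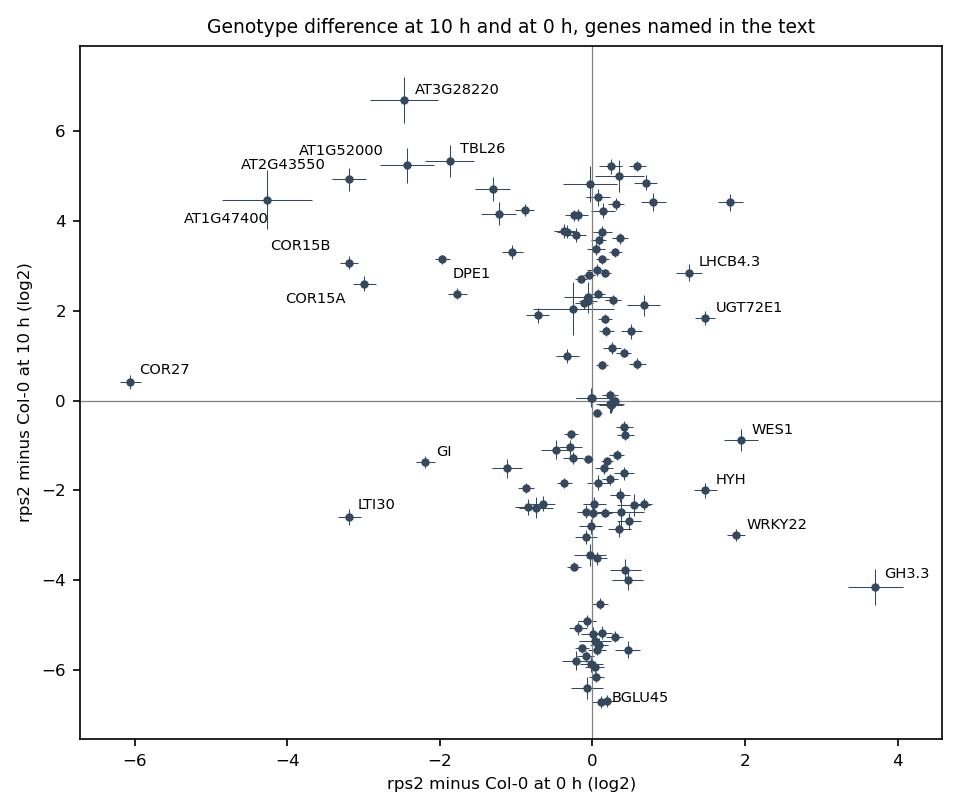
Difference between rps2 and Col-0 at 10 h (vertical axis) against that at 0 h (horizontal axis), both on the log2 scale, for the genes named in the text, with bars of 1 SE. Most genes lie near 0 on the horizontal axis, while COR15B (-3.19 at 0 h and 3.07 at 10 h), GH3.3 (3.71 and -4.14) and AT3G28220 (-2.47 and 6.69) lie in the quadrants of opposite direction.

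There were 133 genes with a change over time of at least 3 on the log2 scale in both genotypes, 2 changes that share the 10 h arrays with the comparison. Of these 133 genes 23 were higher in rps2 at 10 h, 79 lower and 31 not called. The shares over all probe sets were 27.8% higher and 29.6% lower. The 8 with the smallest genotype difference at 10 h are described here, so that small differences and missing calls follow from the choice. Their 95% intervals lay within -0.64 and 0.59. Besides BSMT1 they included MSRB9 (AT4G21850), a methionine sulfoxide reductase gene, with 0.43 and 0.52 in rps2, and 0.85, 0.49 and 0.37 in Col-0. Its difference was -0.09 (95% interval -0.48 to 0.29), after changes from 0 h of 6.30 in rps2 and 6.64 in Col-0. AT5G52810 had an interval of -0.23 to 0.23, AT3G51440 of -0.39 to 0.52, AT3G04000 of -0.52 to 0.38 and AT2G23680 of -0.39 to 0.24. AT1G13650 was lower at 10 h than at 0 h by 3.99 in rps2 and 3.89 in Col-0, with an interval of -0.10 to 0.36 between genotypes. With all 15 arrays the differences of the 8 genes ran from -2.27 for MSRB9 to 1.44 for AT1G13650, and none was called (adjusted p of 0.126 to 0.187). On the poly-A scale they were higher in rps2 by 1.09 to 1.36. When quantile normalisation was repeated, 5 of the 7 genes named here were called as higher, AT3G04000 with 1.34 (adjusted p = 1.09e-05), BSMT1 with 1.01, AT3G51440 with 0.98 (adjusted p = 3.11e-05), MSRB9 with 0.67 (adjusted p = 0.000686) and AT5G52810 with 0.29 (adjusted p = 0.0369). That setting forces 1 distribution on arrays of unequal spread, so these calls cannot be told apart from its effect.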

How the data were processed

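Leaf RNA of 15 samples was hybridised to arrays. Per the submitters' processing notes the arrays were processed with RMA, and the authors deposited log2 values. The version and other upstream steps are not given in the sources used here. Every probe set had a median of 0 over the arrays, so no filter on low values and no detection limit was possible. Precision depends on how many arrays a group has.

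Of 22810 probe sets, 64 controls were set aside and 22746 tested. The platform annotation paired 13513 with 1 gene, 503 with several and left 8730 unnamed. Symbols came from a RefSeq gene table (assembly TAIR10.1), which held 13436 of those with a single gene. Probe sets of the same gene were averaged (146 genes), and such a gene was called only where all its probe sets were called in the same direction. Of 38 lists, with 1507 members looked for, 194 members (185 different genes) were measured, and 10 names that belong to another gene were left out.

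A mean per group was fitted with limma 3.58.1 in R 4.3.3 to 14 arrays, with all groups sharing the spread (9 residual and 5.55 prior degrees of freedom). The moderated test was two-sided. Benjamini-Hochberg adjustment covered all 22746, and the threshold was 0.05. The median SE of a 10 h difference was 0.109 and its 95% interval reached a median of 0.233 to either side. There were 3 comparisons: genotypes at 10 h, genotypes at 0 h and the difference between these. Steps were tested on simulated data. An error after ± is the SE unless SD is written.

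Genes named were the 15 largest rises and falls among single-gene probe sets whose groups did not overlap, members of each list and family with the largest differences, and the 8 smallest differences among genes that changed by at least 3 in both genotypes. Apart from genes named only as neighbours of these, the text names 126 genes, and 3 of the 126 fall outside this rule. Comparisons, members and lists were chosen with earlier results of these data known. Alternatives were all 15 arrays, the replicate block, fits restricted to the groups compared, trended and robust variance, array weights (statmod 1.5.0), repeated quantile normalisation, centring on medians or poly-A controls, a test against a change of 1 (treat), stricter thresholds and each array left out. Replicate numbers did not pair the samples.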

Additional observations from a re-analysis of the deposited data

Results flagged for a closer look

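The difference between genotypes was not the same at 10 h as at 0 h for 11773 probe sets by limma's test of the change itself (adjusted over all probe sets). Among the 126 genes named above, 17 were called at both times in opposite directions, with a difference of at least 1 at 0 h. Without that minimum, 1609 of all 22746 probe sets were called lower in rps2 at 0 h and higher at 10 h. The reverse held for 1311. The 17 genes are therefore listed as examples and not as a result about the named genes. The change, 10 h less 0 h, was 9.16 for AT3G28220, 8.73 for AT1G47400, 8.12 for AT2G43550, 7.67 for AT1G52000 and 7.2 for TBL26. It was 6.47 for COR27, 6.27 for COR15B, 6.02 for BCAT4, 5.60 for COR15A, 5.39 for GSTU20, 5.11 for DPE1, 4.35 for PORB and 4.14 for BGLU44, all lower in rps2 at 0 h and higher at 10 h. It was -7.84 for GH3.3, -4.88 for WRKY22, -3.48 for HYH and -2.82 for WES1, which were higher in rps2 at 0 h and lower at 10 h. The 10 h calls of COR27 and WES1 were lost with all 15 arrays.

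The poly-A spike-ins, which no comparison of the genes uses, differed by -1.23 between rps2 and Col-0 at 10 h (-0.25 in rps2 and 0.98 in Col-0). Their part in the differences was not tested beyond the values on the poly-A scale.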

How the results depend on the processing

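At 10 h the count of probe sets called was 13065. It was 21165 on the poly-A scale, 5393 with a change of at least 1, 3811 with treat (2209 higher and 1602 lower) and 10959 to 12726 with 1 array left out. At 0 h the count of 6854 became 3624 with all 15 arrays, 4300 on the poly-A scale (1313 higher and 2987 lower), 1229 with a change of at least 1 and 5934 to 6152 with 1 array left out. For the change between times, 11773 became 20702 on the poly-A scale (19509 upward and 1193 downward), 6163 with a change of at least 1 and 10600 to 11727 with 1 array left out. Of the 185 list members measured 147 were called, 71 with treat and 138 to 146 with 1 array left out. With the replicate block the counts were 12745, 6631, 11540 and 147. The block ended the call of COR27 and no other call among the named genes, and the numbers did not pair the samples (26 correlations, -0.173 to 0.106, 1 of them over 0.1).

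For the 126 named genes, 1814 alternative values kept direction and side of the threshold, 40 lost the call, 6 gained it and 30 turned. On the poly-A scale, which adds 1.23 to every difference by construction, the turned genes were PUB23 (0.015), EFR (0.19), UGT76B1 (0.14), UGT74F1 (0.96), AT3G63460 (0.48), SAG101 (0.47), WES1 (0.35), GH3.17 (0.65), AT5G52810 (1.23), AT3G04000 (1.16), AT2G23680 (1.15) and MSRB9 (1.14). With all 15 arrays they were CML41 (-0.78), COR27 (-1.62), BSMT1 (-1.92) and AT3G51440 (-1.49), and with array weights AT5G52810 (0.011). With 1 array left out, signs turned for BSMT1 (-0.58 to 0.70), AT5G52810 (-0.072 to 0.072), AT3G51440 (-0.059 to 0.18), AT3G04000 (-0.26 to 0.2) and MSRB9 (-0.19 to 0.044). Repeated quantile normalisation, which forces 1 distribution on the centred values, turned SWEET4 (0.13), AT5G52810 (0.29), AT3G04000 (1.34), MSRB9 (0.67), AT2G23680 (0.2) and AT1G13650 (-0.049). Of the medians of 26 lists and families, 15 values turned: on the poly-A scale U-box (0.01), UGT (0.93), WRKY (0.92), β-glucosidase (0.80), autophagy (0.68), auxin (0.99), calcium (0.61), endoplasmic reticulum (0.59), vesicle traffic (0.38) and salicylic acid (0.55), with repeated quantile normalisation WRKY (0.03), plastid-encoded (-0.11) and cold and light (-1.25), and with all 15 arrays cold and light (-1.62) and jasmonic acid (-0.33). The causes were not tested otherwise. Promoter motifs were not run, since no sequences were used here.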
